A study of Zea mays with 6 samples.

Results

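Of the 45953 annotated features measured in maize (Zea mays) leaf, 8 genes of the circadian clock are described here. They are the 6 listed pseudo-response regulator genes, whose descriptions in the deposited table name APRR1 (2 genes) or APRR9 (4 genes), and the 2 genes described as EARLY FLOWERING 3 (ELF3). They were taken by gene identifier, not by their values, and all 8 passed the filter on low counts that kept 24704 genes for testing. The LW group held 3 leaf libraries of maize under drought whose water came continuously through negative pressure irrigation, a method that feeds soil by its own suction out of a tank kept under less than atmospheric pressure. The CW group held 3 leaf libraries of maize in moist soil with drip irrigation. Soil water and irrigation method differed together between LW and CW, so they cannot be told apart. The labels give neither a cultivar or plant age nor the time of day at which leaves were taken, and nothing says that replicates came from separate plants.

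The plant clock is a set of interlocking transcriptional loops, worked out mainly in Arabidopsis, in which genes are expressed at set times of day. The pseudo-response regulators are repressors that follow one another from morning to night; in Arabidopsis they act on the morning genes CCA1 and LHY, and APRR1 is the gene known as TOC1. ELF3 joins ELF4 and LUX in the evening complex, a repressor of clock and growth genes around dusk. Transcripts of many of these genes cycle over the day, so their level in a single harvest depends on the hour of that harvest as well as on the conditions.

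Deposited counts summed to between 62327457 and 84084375 in LW libraries and to between 42927751 and 64067543 in CW libraries. Chlorophyll a-b binding genes, which mark leaf, had a summed level of 3493 to 5427 FPKM (fragments scaled by gene length and library size) in LW and of 19552 to 27885 FPKM in CW over 15 genes. Markers of C4 leaf cells mostly overlapped between groups: PEP carboxylase 1 had 159 to 1192 FPKM in LW and 247 to 472 FPKM in CW, and 3 orthophosphate dikinase genes summed to 471 to 980 FPKM in LW and 701 to 1148 FPKM in CW. The 6 NADP-dependent malic enzyme genes summed to 58.7 to 94.8 FPKM in LW and 33.1 to 121.6 FPKM in CW. The 2 Rubisco small subunit genes did not overlap, with 1014 to 1967 FPKM in LW and 3761 to 20149 FPKM in CW. Zein genes, which mark seed, were listed at 0 in all libraries for 15 of 18 genes. The 12 genes described as pollen-specific summed to 12.8 to 15.1 FPKM in LW and to 11.9 to 16.4 FPKM in CW. In bulk RNA, fewer cells of a type and less RNA per cell cannot be told apart. The part of the lower chlorophyll a-b binding and Rubisco levels in the results that follow was not tested.

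The 2 ELF3 genes, the 4 APRR9 genes and the abundant APRR1 gene Zm00001d017241 all had lower means in LW than in CW, while the scarce APRR1 gene Zm00001d003811 had the higher mean in LW. None of these differences passed the test across all genes. By edgeR's quasi-likelihood test, 0 of the 8 genes had a Benjamini-Hochberg adjusted p under 0.05, against 5.23% of all tested genes in either direction, 2.84% higher and 2.40% lower in LW. At an unadjusted p under 0.05, 3 of the 8 genes were lower in LW and 0 higher, against 24.7% of all tested genes in either direction and 11.4% lower. DESeq2 called 2 of the 8, both lower in LW, against 8.29% of all genes lower. Limma called 0 of the 7 it tested, against 2.46% of genes lower on log2(FPKM + 0.1), 2.79% on log2(FPKM + 1) and 4.20% after quantile normalization. The fitted log2 fold change of LW over CW was negative for 7 of the 8 genes, against 47.4% of all tested genes. Its median over the 8 was -0.99, and over all tested genes it was 0.06. With library totals in place of TMM factors, the median of all genes moved to 0.42 and that of the 8 genes to -0.62. The 7 genes had negative fitted values in each of the 14 alternative settings.

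**Figure D1:**
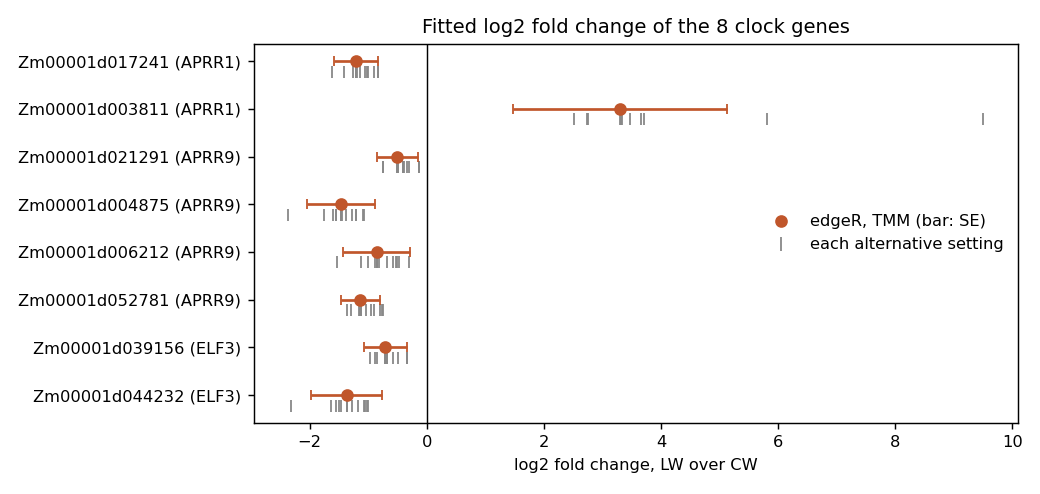
Fitted log2 fold change of LW over CW for each of the 8 genes (x axis; orange point, edgeR with TMM; bar, SE; grey ticks, each alternative setting; n = 3 libraries per group). All points and ticks of 7 genes lie below 0, and those of Zm00001d003811 lie above 0, between 2.51 and 9.51.

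The first of the APRR1 genes, Zm00001d017241, lies on chromosome 5 at 190060998 to 190063941 on the plus strand (genome build not given in the sources used here), with 7 transcripts. It had 7.20, 15.41 and 6.51 FPKM in LW libraries, against 12.47, 20.98 and 18.55 FPKM in CW libraries. LW replicate 2 stood above CW replicate 1, so the FPKM ranges overlapped, with means of 9.71 ± 4.95 FPKM in LW and 17.3 ± 4.38 FPKM in CW (SD, n = 3 each). In library-scaled counts with TMM factors (CPM), the gene had 19.4, 35.9 and 16.1 in LW and 39.5, 69.1 and 57.0 in CW, with no overlap. TMM factors were 1.05 to 1.21 in LW and 0.854 to 0.910 in CW, and they lower LW values relative to FPKM. The fitted level was 2.32-fold lower in LW (log2 -1.21, SE 0.38, adjusted p = 0.101, edgeR quasi-likelihood, Benjamini-Hochberg). Over all alternatives the adjusted p was 0.0287 to 0.287, the lowest with DESeq2.

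Its paralog by description, Zm00001d003811 on chromosome 2 (60524040 to 60525732, plus strand), is a gene of 1693 bases with 1 transcript. It had 0.93, 2.54 and 0.44 FPKM in LW libraries and was listed at 0, 0 and 0.29 FPKM in CW libraries. All LW values stood above all CW values in FPKM and in CPM, at levels below 3 FPKM throughout. The gene passed the filter on low counts only through LW, where it is high, so its separation and fold are descriptions of a gene that had to differ. It was the only 1 of the 8 genes whose FPKM ranges did not overlap, higher in LW, and 0 were lower; of all tested genes, 37.4% had no overlap in either direction and 7.77% with LW lower. The deposited counts behind it were 70, 230 and 45 in LW and 0, 0 and 23 in CW. The fitted log2 fold change of 3.31 (SE 1.83, adjusted p = 0.315, edgeR quasi-likelihood, Benjamini-Hochberg) rests on few CW counts and depends on how zeros are handled. It was 2.51 without LW replicate 2, 5.81 with the replicate block and 9.51 without CW replicate 3, where the CW libraries left are both at 0 and the adjusted p was 0.0443.

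The 4 APRR9 genes are so called by their description alone: 3 of them share the KEGG entry K12130 and Zm00001d052781 has none, so the table does not settle which Arabidopsis regulator each corresponds to. Zm00001d052781, on chromosome 4 at 200737914 to 200744017 (plus strand, 9 transcripts), had 9.61, 14.12 and 6.70 FPKM in LW libraries, against 13.12, 17.05 and 22.05 FPKM in CW libraries. LW replicate 2 alone exceeded the lowest CW library in FPKM. In CPM it had 47.4, 60.3 and 30.4 in LW and 76.2, 103 and 124 in CW, with no overlap. The gene was 2.20-fold lower in LW (log2 -1.14, SE 0.33, adjusted p = 0.0858, edgeR quasi-likelihood, Benjamini-Hochberg), the smallest adjusted p of the 8. Its adjusted p over all alternatives was 0.0169 to 0.247, the lowest with DESeq2. It overlaps a tRNA gene on the opposite strand, Zm00001d052782, that is listed at 0 in all 6 libraries.

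Zm00001d004875, on chromosome 2 at 145683678 to 145688881 (minus strand, 9 transcripts), had the most negative fitted value of the 8. It had 6.47, 21.87 and 4.19 FPKM in LW libraries and 19.81, 17.64 and 31.23 FPKM in CW libraries. LW replicate 2 lay within the CW range, while LW replicates 1 and 3 lay below every CW library. In CPM all LW values (35.4, 103 and 21.1) were below all CW values (128, 118 and 195). It was 2.76-fold lower in LW (log2 -1.46, SE 0.58, adjusted p = 0.177, edgeR quasi-likelihood, Benjamini-Hochberg). Without LW replicate 2 the log2 fold change was -2.36. Over all alternatives the adjusted p was 0.0639 to 0.365, so no setting called this gene. CPM ranges of LW below those of CW were found for 3 of the 8 genes, namely this one, Zm00001d052781 and Zm00001d017241, and for 14.9% of all tested genes. In either direction, 34.6% of all tested genes had no overlap in CPM; of the 8 genes, Zm00001d003811 is the only other.

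The other 2 APRR9 genes overlapped between groups on both scales. Zm00001d006212, on chromosome 2 at 201957643 to 201963956 (minus strand, 4 transcripts), had 9.03, 23.69 and 5.92 FPKM in LW libraries, against 10.38, 13.58 and 30.01 FPKM in CW libraries. A single library in each group, LW replicate 2 and CW replicate 3, stood far above the rest of its group. Its fitted log2 fold change was -0.85 (SE 0.57, adjusted p = 0.409, edgeR quasi-likelihood, Benjamini-Hochberg), and it was -1.53 without LW replicate 2 and -0.31 without CW replicate 3. Zm00001d021291, on chromosome 7 at 148065548 to 148071232 (minus strand, 6 transcripts), had 16.77, 28.93 and 15.35 FPKM in LW libraries, against 14.08, 26.99 and 25.96 FPKM in CW libraries. Its lowest and its highest library were CW replicate 1 and LW replicate 2, so that each group spanned most of the range. Its means had the ratio nearest to 1 of all 8 genes, with 20.4 ± 7.46 FPKM in LW and 22.3 ± 7.17 FPKM in CW (SD, n = 3 each; log2 fold change -0.50, SE 0.35).

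**Figure D2:**
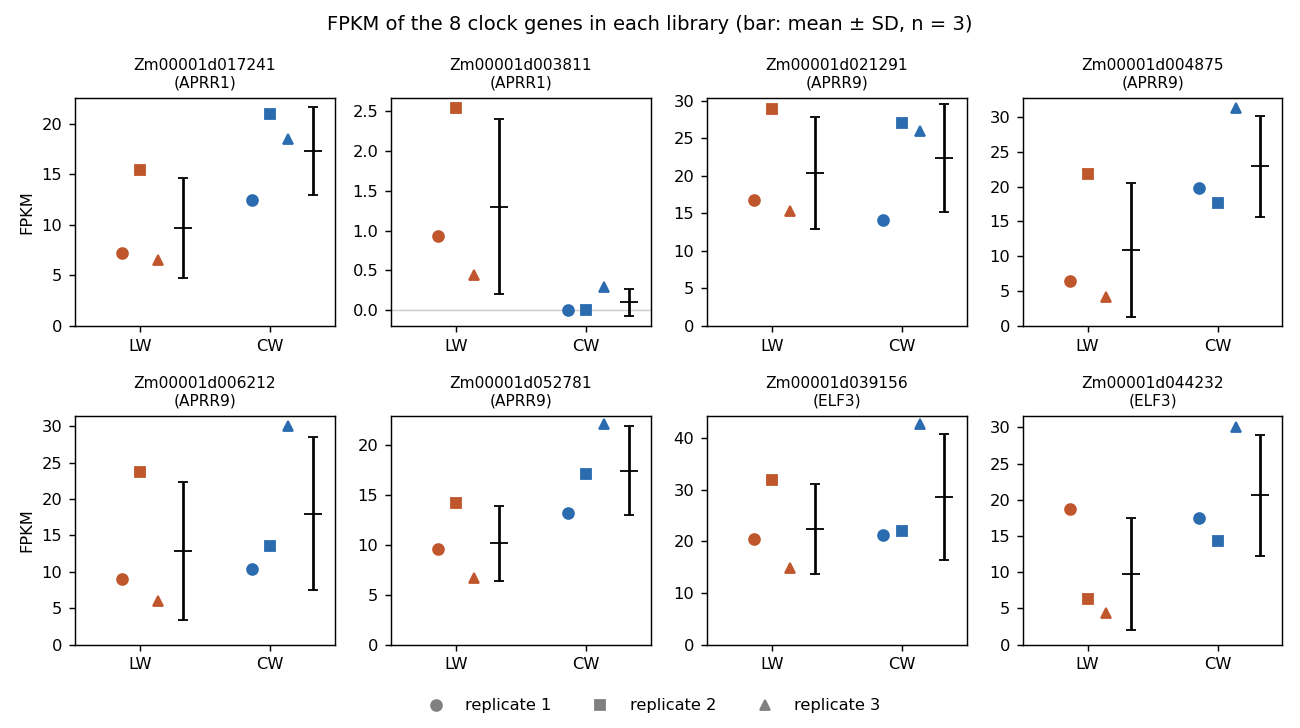
FPKM (y axis, a separate scale for each gene) of the 8 genes in 3 LW libraries (orange) and 3 CW libraries (blue); symbols give the replicate, and black bars the mean ± SD. LW replicate 2 (square) is the highest LW library for 7 genes, and LW replicate 3 (triangle) is the lowest LW library for all 8.

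The 2 ELF3 genes encode the scaffold of the evening complex in Arabidopsis. Zm00001d039156, on chromosome 6 at 171181094 to 171184464 (minus strand, 2 transcripts), had 20.37, 31.96 and 14.89 FPKM in LW libraries, against 21.25, 21.96 and 42.74 FPKM in CW libraries. LW replicate 2 exceeded both lower CW libraries, and the means of 22.4 ± 8.72 FPKM in LW and 28.7 ± 12.2 FPKM in CW differed by less than either SD (n = 3 each). Its fitted log2 fold change was -0.71 (SE 0.37, adjusted p = 0.294, edgeR quasi-likelihood, Benjamini-Hochberg). It was -0.35 with library totals, -0.34 without CW replicate 3 and -0.96 without LW replicate 2.

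Zm00001d044232, named pco135758 in the table, lies on chromosome 3 at 222542813 to 222548835 (minus strand, 5 transcripts). It had 18.65, 6.28 and 4.41 FPKM in LW libraries, against 17.49, 14.26 and 30.10 FPKM in CW libraries. LW replicate 1 stood above the lower CW libraries, and LW replicates 2 and 3 stood below all of them. Its means were 9.78 ± 7.74 FPKM in LW and 20.6 ± 8.37 FPKM in CW (SD, n = 3 each), with a log2 fold change of -1.36 (SE 0.61, adjusted p = 0.219, edgeR quasi-likelihood, Benjamini-Hochberg). Without LW replicate 1 the log2 fold change was -2.32.

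Ordered by mean FPKM over all 6 libraries, the ELF3 gene Zm00001d039156 was the highest at 25.5 ± 10.1 FPKM (SD over 6 libraries), followed by the APRR9 gene Zm00001d021291 at 21.3 ± 6.64 FPKM. Next came the APRR9 genes Zm00001d004875 at 16.9 FPKM and Zm00001d006212 at 15.4 FPKM, and the ELF3 gene Zm00001d044232 at 15.2 FPKM. The APRR9 gene Zm00001d052781 and the APRR1 gene Zm00001d017241 had 13.8 and 13.5 FPKM. Each step between neighbours in this order was smaller than the larger SD of the pair, except the last, to 0.70 ± 0.965 FPKM for Zm00001d003811. The 7 abundant genes exceeded the mean FPKM of 74.1% to 84.7% of all tested genes, and Zm00001d003811 that of 15.4%. The order was not the same in each group: Zm00001d004875 was the second highest in CW, with 22.9 ± 7.30 FPKM, and the fourth in LW, with 10.8 ± 9.62 FPKM.

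Within the groups the genes shared an order of libraries. LW replicate 2 was the highest LW library for all 6 pseudo-response regulators and for Zm00001d039156, that is for 7 of the 8 genes, against 45.6% of all tested genes. LW replicate 3 was the lowest LW library for 8 of the 8, against 26.5% of all tested genes. In CW, replicate 3 was the highest library for 6 of the 8 genes and replicate 1 the lowest for 6 of the 8, against 41.9% and 35.0% of all tested genes. Ties were given to the lower-numbered replicate, also in the shares over all tested genes. Zm00001d003811 is such a tie, at 0 FPKM in CW replicates 1 and 2. Of the 7 genes over 1 FPKM in every library, CW replicate 1 was the lowest CW library for 5. The exception in LW was the ELF3 gene Zm00001d044232, which was highest in replicate 1. These counts are over genes of the same 6 libraries and are not independent of one another. Across the 6 libraries, the highest value was 2.05 times the lowest for Zm00001d021291, 2.87 times for Zm00001d039156, 3.22 times for Zm00001d017241 and 3.29 times for Zm00001d052781. The ratio reached 5.07 for Zm00001d006212, 6.83 for Zm00001d044232 and 7.45 for Zm00001d004875.

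Other clock lists had their own orders of libraries. Among 7 genes of the LHY, CCA1 and REVEILLE list (morning transcription factors) over 1 FPKM, LW replicate 3 was the highest LW library for 6 and LW replicate 2 the lowest for 5, against 30.0% and 26.4% of all tested genes. In CW, replicate 3 was the lowest library for 5 of these 7, against 30.1% of all tested genes, and the highest for the other 2, which are the LHY ortholog Zm00001d024546 and CCA1 (Zm00001d049543). The REVEILLE 8 genes Zm00001d034946 and Zm00001d034947 of this list overlap on the plus strand of chromosome 1, so they are not independent. Both were highest in LW replicate 3 among LW libraries and lowest in CW replicate 3 among CW libraries. Among the 7 GIGANTEA and ADAGIO genes, which serve protein turnover in the clock, LW replicate 2 was the highest LW library for 5 and CW replicate 3 the highest CW library for 7. LW replicate 2 was thus high within its group for 7 of the 8 genes and low for 5 of these 7 morning factors, while in CW replicate 3 the LHY ortholog and CCA1 were high, as 6 of the 8 genes were. The difference between these lists was not tested.

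**Figure D3:**
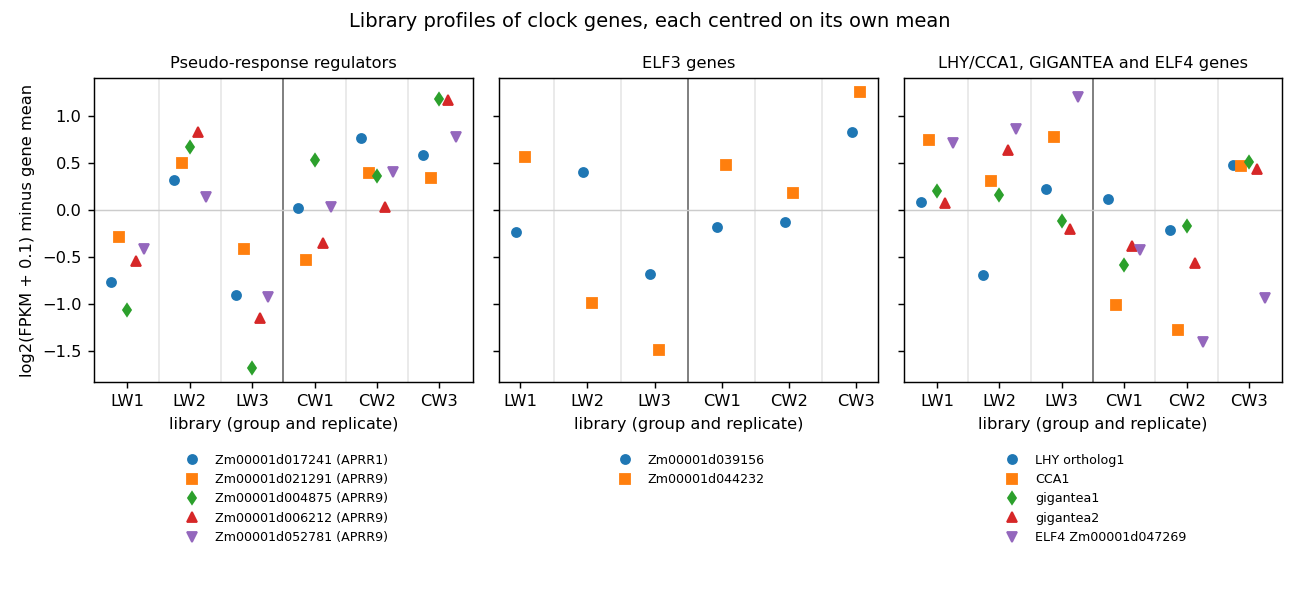
log2(FPKM + 0.1) of clock genes minus each gene's mean (y axis) in the 3 LW and 3 CW libraries (x axis; replicates have no order). The 5 abundant pseudo-response regulators are high in LW2 and low in LW3, the ELF3 gene Zm00001d044232 is high in LW1, and the LHY ortholog is lowest in LW2. CCA1 and gigantea2 in the right panel were chosen after their values were seen.

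The paralogs were then compared within each library, where the scaling between libraries cancels. Over the 8 pairs within the APRR1, APRR9 and ELF3 groups, the log2 ratio of FPKM + 0.1 was compared between LW and CW by a two-sided exact permutation test. With 3 against 3 libraries its smallest possible p is 0.1, so no pair could pass 0.05, and the smallest adjusted p over the 8 pairs was 0.267. Ratios of 3 of the 8 pairs did not overlap between groups, and the share over other pairs of genes was not computed. They include the APRR1 pair, whose scarce gene passed the filter on low counts only through LW. The 6 APRR9 pairs are formed from 4 genes and are not independent of one another.

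Zm00001d004875 over Zm00001d006212, a pair of APRR9 genes on chromosome 2, had log2 ratios of -0.47, -0.11 and -0.49 in LW and of 0.93, 0.37 and 0.06 in CW. In FPKM the order of the pair thus differed between groups. Zm00001d004875 was below its paralog in every LW library and above it in every CW library (difference of means -0.81, exact permutation p = 0.1, n = 3 each). In CPM, which is not scaled by gene length, Zm00001d004875 was the higher in every library. It had 35.4, 103 and 21.1 CPM in LW, against 24.7, 56.1 and 14.9 for Zm00001d006212. In CW it had 128, 118 and 195 CPM, against 33.5, 45.5 and 93.8. The order thus depends on the scale. Zm00001d052781 over Zm00001d021291 had log2 ratios of -0.80, -1.03 and -1.18 in LW and of -0.10, -0.66 and -0.23 in CW. In FPKM, Zm00001d021291 was the higher of this pair in 6 of 6 libraries, by a mean log2 of 1.00 ± 0.19 in LW and of 0.33 ± 0.29 in CW (SD, n = 3 each). In CPM it was the lower in every CW library (46.0, 91.5 and 82.1 against 76.2, 103 and 124). The other 4 APRR9 pairs overlapped between groups. Over all 6 libraries the ratio within an APRR9 pair ranged 2.11-fold to 5.06-fold.

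The APRR1 pair had mean log2 ratios of 3.00 ± 0.55 in LW and 6.76 ± 1.09 in CW (SD, n = 3 each; Zm00001d017241 over Zm00001d003811). The abundant gene was above the scarce one in 6 of 6 libraries, and the CW values depend on the pseudocount because Zm00001d003811 is listed at 0 in 2 CW libraries. Zm00001d003811 also passed the filter on low counts only through LW, so the lack of overlap in this pair is a description and not a result of the test. The ELF3 pair differed most among LW libraries. Zm00001d044232 had 0.916, 0.196 and 0.296 times the FPKM of Zm00001d039156 in LW replicates 1 to 3, and 0.823, 0.649 and 0.704 times in CW replicates 1 to 3. In FPKM it was the lower gene of the pair in 6 of 6 libraries, with a near-equal level in LW replicate 1. In CPM, which is not scaled by gene length, it was the higher in LW replicate 1 (114 against 55.2). It was also the higher in every CW library (126, 107 and 210 against 67.8, 72.8 and 132). In LW replicates 2 and 3 it was the lower in CPM too. The groups overlapped (difference of mean log2 ratios -0.93, exact permutation p = 0.4).

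**Figure D4:**
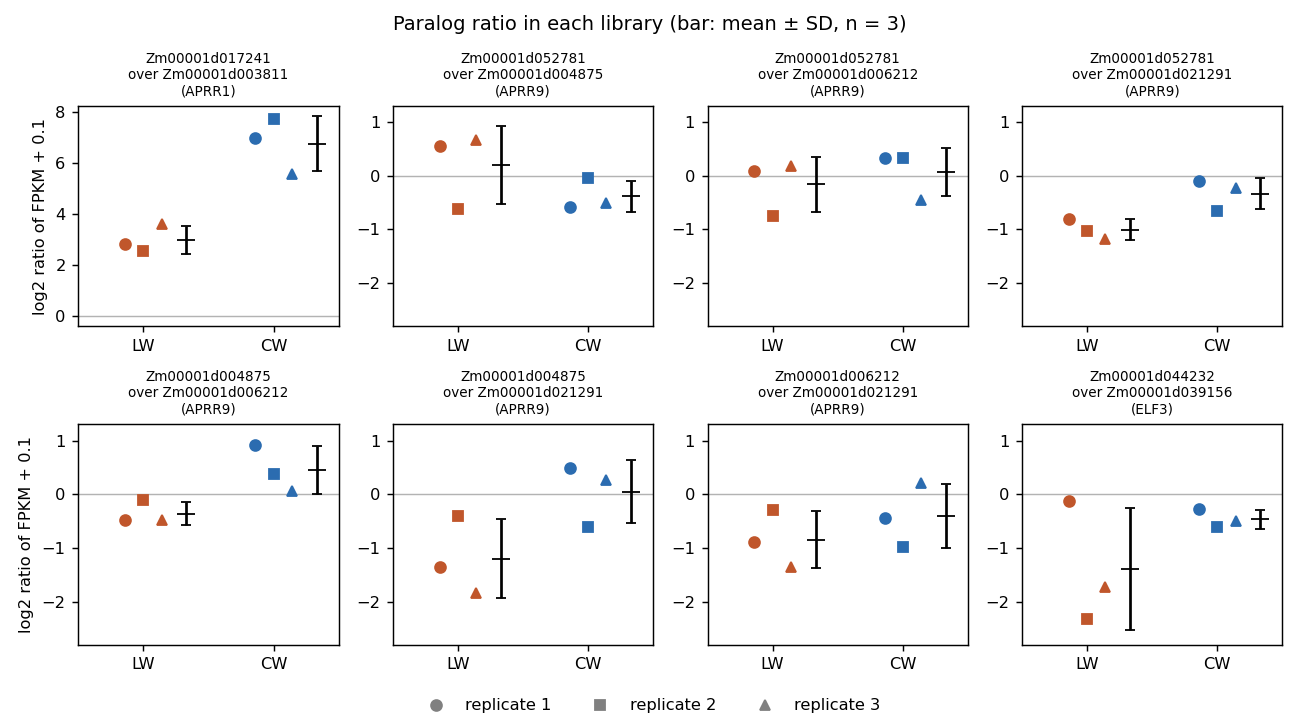
log2 ratio of FPKM + 0.1 between paralogs (y axis) in 3 LW libraries (orange) and 3 CW libraries (blue) for the 8 pairs; symbols give the replicate, bars the mean ± SD. Groups do not overlap for the APRR1 pair, for Zm00001d052781 over Zm00001d021291 and for Zm00001d004875 over Zm00001d006212, and the ELF3 ratio spans -2.33 to -0.13 in LW. Zm00001d003811 of the APRR1 pair passed the filter on low counts only through LW.

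Likeness of pattern was measured as the root mean square difference of gene-centred log2(FPKM + 0.1) over the 6 libraries. Among the 8 genes the closest pair was of pseudo-response regulators with different descriptions: the APRR9 gene Zm00001d052781 and the APRR1 gene Zm00001d017241 differed by 0.232. The ELF3 gene Zm00001d039156 was nearer to the APRR9 genes Zm00001d052781 (0.288) and Zm00001d006212 (0.333) than to the other ELF3 gene (0.811). Among all 17114 described genes of at least 1 FPKM, the nearest to Zm00001d017241 was a replication factor C subunit 5 gene (Zm00001d018243, 0.088) and the nearest to Zm00001d052781 an ATP-dependent Clp protease gene (Zm00001d005359, 0.097). The nearest to Zm00001d021291 was a protein kinase gene (Zm00001d053133, 0.082), and the nearest to Zm00001d006212 a WD40 gene (Zm00001d029366, 0.109). Zm00001d004875 had no gene nearer than 0.198, an AP2-EREBP transcription factor (Zm00001d038585). For the ELF3 genes, the nearest to Zm00001d039156 was a UV-B-induced protein gene (Zm00001d026211, 0.090) and the nearest to Zm00001d044232 a ubiquinone biosynthesis O-methyltransferase gene (Zm00001d010103, 0.138). For Zm00001d003811 the nearest was a dnaJ-related gene (Zm00001d025225) at 0.311. With 6 libraries and so many candidates, such likeness is a description of these libraries.

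By KEGG annotation in the deposited table, 6 of the 8 genes belong to the plant circadian rhythm pathway; Zm00001d003811 and Zm00001d052781 do not. None of the 29 other tested genes of that pathway was called by edgeR, with 8 at an unadjusted p under 0.05, near the 24.7% of all tested genes. DESeq2 called 1 higher and 3 lower, against 9.86% and 8.29% of all genes. Limma called 0 or 1 of the 28 it tested, by setting. Among 5 further clock lists matched by words in the descriptions, 1 of 33 tested genes was higher in LW and 0 lower, against 2.84% and 2.40% of all tested genes. At an unadjusted p under 0.05 there were 3 of the 33, against 24.7% of all tested genes, and DESeq2 called 2, both higher. Their median log2 fold change was 0.27, against -0.99 for the 8 genes and 0.06 for all tested genes. It was 0.63 with library totals and 0.04 after quantile normalization of FPKM, where the medians of all genes were 0.42 and -0.06. Without CW replicate 2 it was 0.02, and without LW replicate 2 it was 0.15.

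The gene called was an ELF4 gene, Zm00001d047269, whose Arabidopsis counterpart binds ELF3. It rose to 28.56, 31.64 and 40.20 FPKM in LW libraries, against 12.94, 6.52 and 9.05 FPKM in CW libraries, with no overlap. The difference was 2.77-fold (log2 1.47, SE 0.32, adjusted p = 0.0460, edgeR quasi-likelihood, Benjamini-Hochberg). Leaving out any 1 of the 6 libraries ended the call, with adjusted p values of 0.0561 to 0.182, and so did the replicate block, at 0.114. All 5 tested genes of the ELF4 and LUX list had a positive fitted value, and the other 4 did not pass the test. Without CW replicate 2 it was 4 positive and 1 negative, with a list median of 0.37 in place of 0.61, and without CW replicate 1 the median was 1.61; in the other alternatives all 5 stayed positive. The LW over CW directions of ELF4 and of both ELF3 genes, which form 1 complex in Arabidopsis, were thus opposite in their fitted values. The difference between ELF4 and ELF3 was not tested.

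Of the other pseudo-response regulators, 8 genes were matched and 4 tested, with 0 called by edgeR, 0 at an unadjusted p under 0.05 and 0 called by DESeq2. The most abundant, the APRR3 gene Zm00001d047761, had 75.51, 66.73 and 85.74 FPKM in LW libraries and 63.52, 81.61 and 57.29 FPKM in CW libraries, above every one of the 8 genes in mean. Its groups overlapped, and its fitted log2 fold change of -0.18 turned to 0.18 with library totals. A further APRR3 gene, Zm00001d007240, chosen after its values were seen, had 33.24, 28.94 and 29.39 FPKM in LW and 9.58, 21.78 and 23.39 FPKM in CW. Its FPKM ranges did not overlap, as for 37.4% of all tested genes, but its CPM of 63.6 to 84.4 in LW and 28.7 to 67.8 in CW did, and its log2 fold change was 0.40 (adjusted p = 0.545, edgeR quasi-likelihood, Benjamini-Hochberg). Among 13 tested LHY, CCA1 and REVEILLE genes and 7 GIGANTEA and ADAGIO genes, edgeR called 0, with 1 at an unadjusted p under 0.05 in each list, and DESeq2 called 1 and 0. The LHY ortholog Zm00001d024546 had 58.36, 34.07 and 64.38 FPKM in LW and 59.49, 47.43 and 76.81 FPKM in CW. CCA1 (Zm00001d049543), chosen after its values were seen, had 28.28, 20.98 and 28.90 FPKM in LW and 8.34, 6.87 and 23.42 FPKM in CW. The ranges of CCA1 overlapped through CW replicate 3 alone. The gigantea1 gene Zm00001d008826 had 80.56, 78.35 and 64.70 FPKM in LW and 46.65, 62.21 and 99.68 FPKM in CW, with CW replicate 3 the highest of all. In the list of other clock-associated genes 0 of 4 were called by edgeR, by DESeq2 or at an unadjusted p under 0.05, and its most abundant member, TIME FOR COFFEE (Zm00001d006628), had 24.66, 32.13 and 29.57 FPKM in LW and 29.39, 25.43 and 27.38 FPKM in CW.

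Fitted values of light input and photoperiod output genes were mostly negative. Over photoreceptors, light signalling and photoperiod outputs, 5 of 60 tested genes fell in LW (2.40% of all tested genes did) and 0 rose, with 17 lower (11.4% of all tested genes were) and 0 higher at an unadjusted p under 0.05. DESeq2 called 11, all lower, against 8.29% of all genes. Library totals called 2, both lower. Limma called 1 higher and 3 lower of the 58 it tested, on log2(FPKM + 0.1) and on log2(FPKM + 1). Of all genes, 2.46% and 2.79% were lower there. After quantile normalization limma called 1 higher and 7 lower, against 4.20% of genes lower. Fitted values were negative for 44 of the 60, against 47.4% of all tested genes, with a median log2 of -0.56. Under library totals they were negative for 37 of the 60, with a median of -0.20, and without CW replicate 3 the median was -0.31.

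The cryptochrome 3 gene Zm00001d046935, of a blue light receptor family, fell to 3.55, 3.84 and 2.42 FPKM in LW, against 8.44, 14.64 and 8.65 FPKM in CW (4.14-fold lower, adjusted p = 0.0313, edgeR quasi-likelihood, Benjamini-Hochberg). A SPA1-related 3 gene, Zm00001d043592, whose Arabidopsis relatives act with the ubiquitin ligase COP1, had 1.62, 3.08 and 2.29 FPKM in LW and 8.91, 17.67 and 4.39 FPKM in CW (log2 -2.53, SE 0.54, adjusted p = 0.0443, edgeR quasi-likelihood, Benjamini-Hochberg). Another gene of that description, Zm00001d011746, had 1.60, 1.43 and 2.29 FPKM in LW and 6.74, 15.88 and 3.49 FPKM in CW (log2 -2.66, SE 0.59, adjusted p = 0.0499, edgeR quasi-likelihood, Benjamini-Hochberg). Both fell in LW with no overlap, and without CW replicate 2 their log2 fold changes were -1.86 and -1.85, not called. Neither was called with library totals or with limma on log2(FPKM + 0.1) or log2(FPKM + 1), and Zm00001d011746 was not called with RLE size factors (adjusted p = 0.0509, edgeR quasi-likelihood, Benjamini-Hochberg).

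Of the photoperiod outputs, the CONSTANS family gene Zm00001d017176 (CO5) fell to 21.42, 7.59 and 7.73 FPKM in LW, against 56.31, 39.93 and 84.71 FPKM in CW. Its log2 fold change was -2.59 (SE 0.54, adjusted p = 0.0440, edgeR quasi-likelihood, Benjamini-Hochberg) and -3.34 without LW replicate 1. CONSTANS-LIKE 9 (Zm00001d045804) fell to 0.60, 0.62 and 0.44 FPKM in LW, against 1.66, 1.20 and 1.23 FPKM in CW (log2 -1.65, SE 0.36, adjusted p = 0.0477, edgeR quasi-likelihood, Benjamini-Hochberg). These 5 calls stood near the threshold. All of them were lost with the replicate block and without any 1 library other than CW replicate 3, with largest adjusted p values of 0.139 to 0.189. The CONSTANS-LIKE 9 call was also lost with library totals (adjusted p = 0.0735, edgeR quasi-likelihood, Benjamini-Hochberg), without the filter on low counts (0.0572) and with limma on log2(FPKM + 0.1). Its log2 fold change was -0.60 with limma on log2(FPKM + 1), and it was called in 4 of the 14 alternatives. The most abundant members of the 3 lists were not called. Phototropin 1 (Zm00001d044599) had 117.08, 167.26 and 107.19 FPKM in LW and 113.16, 124.71 and 212.19 FPKM in CW, and the phytochrome-interacting factor PIF3 (Zm00001d008205) had 12.85, 18.16 and 13.34 FPKM in LW and 15.93, 23.01 and 17.53 FPKM in CW. CONSTANS-LIKE 5 (Zm00001d046925) had 641.76, 289.53 and 314.44 FPKM in LW and 256.87, 373.61 and 1042.61 FPKM in CW, a range set by 1 library of each group.

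**Figure D5:**
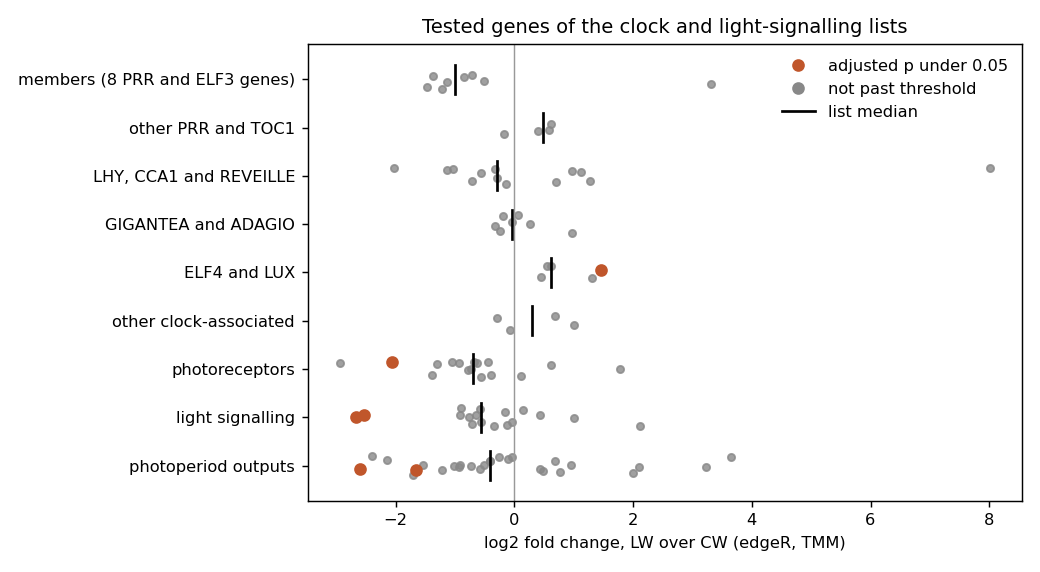
Fitted log2 fold change of LW over CW (x axis; edgeR, TMM) for the tested genes of each list (rows), with genes at an adjusted p under 0.05 in orange and the list median as a black bar. The 8 PRR and ELF3 genes have a median of -0.99 and none is called; the only called gene to the right of 0 is the ELF4 gene, and the point at 8.01 is a REVEILLE 1 gene listed at 0 in all CW libraries, whose fitted value depends on how zeros are handled.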

How the data were processed

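Leaf RNA of 3 LW and 3 CW samples was sequenced as paired ends. The labels' protocols describe isolation of poly(A) RNA but also mention poly(A)- RNA and adipose, so the selection is unsettled. The tools in the submitters' processing notes are edgeR, StringTie 1.3.4, HISAT2 2.0 and FastQC 0.10.1, with no roles. Build, annotation, strandedness and handling of reads shared by paralogs were not given in the sources used here. Groups follow titles and treatment labels; CW replicate 2 has a source name numbered 3. With no record of separate plants, p-values reflect only how these samples vary, possibly for technical reasons.

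The authors deposited FPKM and a count per gene and library. These deposited counts are whole, but 28.6% to 31.4% of values from 1 to 40 are multiples of 4, so they were taken as estimated counts and no counting interval is given. edgeR 4.0.16 (R 4.3.3) was run on all 24704 genes kept by filterByExpr, with TMM factors, glmQLFit and glmQLFTest, group as the only term and Benjamini-Hochberg adjustment. Alternatives were DESeq2 1.42.0, limma 3.58.1 on log2(FPKM + 0.1) and log2(FPKM + 1) of genes at 0.5 FPKM or more in at least 3 libraries, other scalings, no filter, the replicate block and leaving out each library. Exact permutation tests used SciPy 1.17.1. The fits were tested on simulated data.

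The 8 genes, the word lists and the tests were chosen with earlier results of these data known. Of the other lists, each most abundant gene and up to 4 called genes were named, and for likeness the 2 nearest genes were found for each of the 8, of which the nearest is given. Exclusions (helicases, F-box proteins, interacting proteins, CO-LIKE) were added after the matched names were read. Each exclusion applied to its own list only. The light signalling list kept the genes described as COP1-interacting protein-related (Zm00001d005429, Zm00001d019542 and Zm00001d034931). A further 5 genes described as APRR1 or APRR9 were not among the 8 listed; none exceeded a mean of 0.37 FPKM in either group. Also outside the 8 was Zm00001d051114, described as response regulator-like PRR1. It had 3.22, 4.61 and 3.14 FPKM in LW and 1.96, 0.07 and 3.80 FPKM in CW. Its log2 fold change was 0.58 (adjusted p = 0.770, edgeR quasi-likelihood, Benjamini-Hochberg).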

Additional observations from a re-analysis of the deposited data

How the results depend on the processing

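All 7 genes with a negative log2 fold change kept it in 14 alternatives, and Zm00001d003811 stayed positive in the 11 in which it was tested. Over all genes, calls were 701 higher and 592 lower in LW with edgeR and TMM. They were 2421 and 2036 with DESeq2, 1425 and 346 with library totals (80.5% of calls higher in place of 54.2%), and 1123 and 921 after quantile normalization. Limma called 2073 higher and 539 lower on log2(FPKM + 0.1), and 2548 higher and 611 lower on log2(FPKM + 1). DESeq2 called 2 of the 8 genes, Zm00001d052781 and Zm00001d017241, and 13 of the other listed genes in place of 6; library totals called 3 of the other listed genes. Leaving out 1 library each gave 0 to 1678 higher, 0 to 1287 lower, 0 to 1 of the 8 genes and 0 to 10 of the other listed genes. The lowest count came without CW replicate 2, which called 0 genes (5062 at an unadjusted p under 0.05), and the highest without CW replicate 3. Without CW replicate 1 it was 172 higher and 70 lower, and without LW replicates 1, 2 and 3 it was 5, 4 and 1 higher and 1, 0 and 0 lower.

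Same-numbered LW and CW libraries did not deviate together (r of -0.007, -0.006 and -0.162). A low correlation over all genes cannot exclude a pairing by number, and none was assumed in the main fit. The fit with the replicate block called 2 genes higher and 1 lower, 0 of the 8 and 0 of the other listed genes.

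The log2 ratio of Zm00001d052781 to Zm00001d006212 (LW minus CW) was -0.23 and lay between -0.49 and 0.060 with 1 library left out, the highest without LW replicate 2. Among uncalled genes the direction turned for Zm00001d047761 (0.18 with library totals and with limma at either pseudocount, 0.0039 after quantile normalization, and -0.31 to 0.012 with 1 library left out, positive without CW replicate 2), Zm00001d008826 (0.11, 0.17 and 0.16 with library totals and limma, -0.46 to 0.080 with 1 library left out, positive without CW replicate 3) and Zm00001d006628 (0.079, 0.065 and 0.063 in the same scalings). For Zm00001d046925 it turned after quantile normalization (0.056) and without CW replicate 3 (-1.24 to 0.052 with 1 library left out). The cause was not tested. The 7 abundant genes have at least 1273 deposited counts in each library; with counts taken as estimates, the part of depth in their precision was not tested.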
